A study of Homo sapiens with 4 samples.

Results

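The GALNT genes code for the polypeptide GalNAc-transferases, and 10 of them (GALNT1, GALNT2, GALNT3, GALNT4, GALNT6, GALNT7, GALNT10, GALNT11, GALNT12 and GALNT14) were followed here in A2780s cells, a human ovarian adenocarcinoma line, after stable knockdown of 1 of their number, GALNT3. They were found by name among the 17240 genes that the probes of the array name through RefSeq accessions, and every probe of each gene was used. The 10 genes have 14 probes: 7 genes have 1 probe, GALNT4 and GALNT11 have a pair each, and GALNT10 has 3. RNA of 2 knockdown clones, sh-G1 and sh-G2, was hybridised on Agilent 2-colour arrays against RNA of 1 ctrl clone. The knockdown clones were stably transfected with a GALNT3 shRNA in pSilencer 4.1 puro, the ctrl clone was mock-transfected with that vector, and all 3 clones had been selected with puromycin. The same shRNA sequence was used for both, so the clones do not separate effects of the target from effects of that sequence. Each knockdown clone was compared with ctrl on 2 arrays with the dyes exchanged: the knockdown clone was in Cy5 on replicate 1 and in Cy3 on replicate 2. The arrays of a clone counted as 1 replicate, which leaves n = 2 clones against 1 ctrl clone whose own spread was not measured. The labels do not say whether the clones' RNA came from separate cultures on each array, so p-values measure the spread between these clones and arrays.

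GalNAc-transferases start mucin-type O-glycosylation in the Golgi apparatus by moving N-acetylgalactosamine (GalNAc) from UDP-GalNAc to serine or threonine of a protein, which makes the Tn antigen. Other enzymes then extend this sugar to core structures or cap it with sialic acid. The isoenzymes overlap in their substrates, and some act best on peptides that already carry GalNAc. Changes in the set of GalNAc-transferases that a cell makes, and truncated O-glycans, are known from epithelial cancers, where MUC1 and MUC16 (CA125) are among the best known carriers.

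No member probe passed the test of the clone mean against 0 (limma, Benjamini-Hochberg over 39151 probes, threshold 0.05): 0 of 14 were called lower, beside 0.7% of all probes tested, and 0 of 14 were called higher, beside 0.138%. At an unadjusted limma p below 0.05, 4 of 14 member probes were lower (8.02% of all probes) and 2 of 14 were higher (5.28%). The members were chosen with earlier results of these data known, so these shares do not test the family. All values below are log2 ratios of knockdown over ctrl unless a signal is named. The 4 lower probes were those of GALNT14, GALNT7 and GALNT6 and 1 of the GALNT11 pair, and the 2 higher ones were the brighter GALNT4 probe and the GALNT12 probe. The study selected genes by a change of at least 1.5-fold in both dye-swapped arrays of a comparison. For sh-G1 against ctrl, 1 of 14 member probes was lower by that size on both arrays (GALNT7, 1.24% of all probes) and 1 was higher (the brighter GALNT4 probe, 0.442%). For sh-G2 against ctrl, 1 of 14 was lower (GALNT14, 1.42%) and 0 were higher (0.552%). By a stricter rule, at least 1.5-fold on all 4 arrays, 0 of 14 were lower (0.92%) and 0 of 14 were higher (0.23%). Regardless of size, the probes of GALNT6 and GALNT14 were below 0 on every array (9.04% of all probes were), and both GALNT4 probes were above 0 on every array (6.21% were). Every knockdown signal lay below every ctrl signal at 2 of 14 member probes (4.35% of all probes), GALNT6 and GALNT14. Each lay above every ctrl signal at 2 of 14 (2.46%), those of GALNT4. These single-channel signals are formed from the same ratios, so they are not a separate line of evidence. The median over the 10 members, each by its brightest probe, was -0.0044 against -0.0037 over all probes, with 6 of the 10 below 0.

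**Figure D1:**
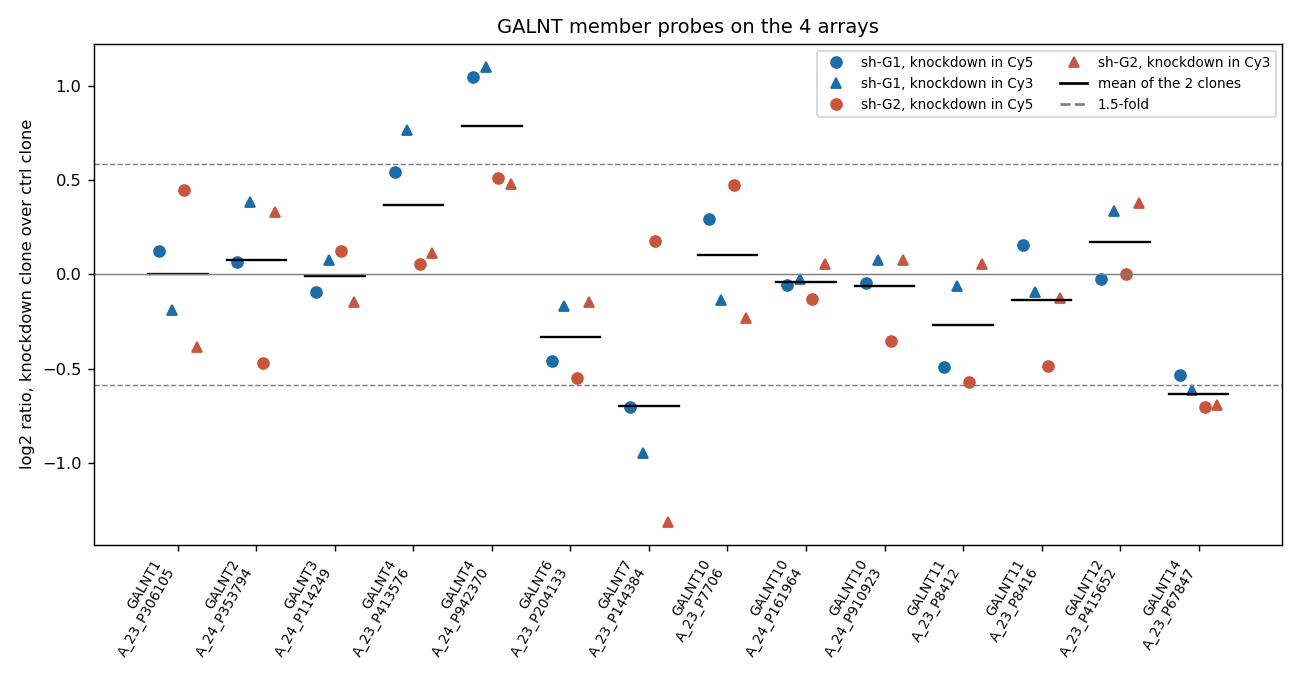
Log2 ratio of knockdown over ctrl (vertical axis) for each of the 14 GALNT member probes (horizontal axis) on the 4 arrays, with circles for the knockdown clone in Cy5, triangles for Cy3, blue for sh-G1, red for sh-G2, a black bar for the mean of the clones and dashed lines at 1.5-fold. GALNT14 lies between -0.70 and -0.53 on every array and the brighter GALNT4 probe between 0.48 and 1.10, while GALNT7 spreads from -1.31 to 0.18.

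The arrays differed in ways that bear on these values. Between 88.1% and 97.0% of spots were well above background in the knockdown channel and between 95.9% and 97.6% in the ctrl channel, and the lowest share was that of the knockdown channel on sh-G2 replicate 2. A probe was tested where, on each array, the knockdown or the ctrl channel was well above background. All 14 member probes passed this filter, and 13 of them were well above background in both channels of all 4 arrays. The exception was the GALNT3 probe. Of the markers of an epithelial ovarian line, all 7 were well above background in every channel, as were 35802 of the 39151 probes kept. The keratin genes KRT8 (-1.03 at its brightest probe, adjusted limma p 0.0316) and KRT18 (-2.32 at its brightest probe, adjusted limma p 0.0365) fell in the knockdown clones. The other markers were not called: KRT19 (0.04), CDH1 (-0.01) and PAX8 (-0.01) stayed near 0, while EPCAM (-0.33) and WFDC2 (-0.42) were lower. The summed signal of these 7 genes was 19372.7 to 22072.4 in ctrl, 9013.4 to 10273 in sh-G1 and 10568.2 to 11562.7 in sh-G2. KRT18 weighs most in this sum, with mean log2 signals of 13.23 in ctrl, 10.66 in sh-G1 and 11.14 in sh-G2. Of 8 markers of other cell types, 7 were kept, and 6 were well above background in all channels. Their summed signal was 28130.4 to 30290.6 in ctrl, 4036.4 to 4407.5 in sh-G1 and 8995.4 to 9086 in sh-G2, and the 1 gene among them that was at least 1.5-fold lower on all 4 arrays was DCN (decorin), at -4.24 as the mean of sh-G1 against -2.09 as that of sh-G2. Without DCN the sum over the other 6 genes was 2611.9 to 2871.9 in ctrl, 2813.7 to 2822.7 in sh-G1 and 2716.4 to 3019.7 in sh-G2. The median ratio of the 7 genes was 0.0194, and ALB (albumin) averaged -0.24 for sh-G1 but 0.90 for sh-G2. The part of these differences between clones in the GALNT values was not tested.

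GALNT3, the target of the shRNA, is the transferase that O-glycosylates FGF23, and its loss causes familial tumoral calcinosis. Its 1 probe, A_24_P114249, gave -0.09 and 0.08 in sh-G1 and 0.12 and -0.14 in sh-G2. Each clone thus had 1 array above and 1 below 0. The mean of the clones was -0.0082 with a standard error of 0.04 and a 95% interval from -0.12 to 0.11 (n = 2 clones, adjusted limma p 0.963). The spot intensities, before correction, were 61.0 to 74.0 in the knockdown channels and 64.0 to 91.5 in the ctrl channels, over a local background of 36.5 to 43.0. In ctrl the probe was well above background on 4 of 4 arrays, with a log2 signal only 0.25 to 0.37 above the lowest signal that counted as well above background there. In the knockdown clones it was well above background on 2 of 4 arrays, 1 of each clone, and its distance to that limit ran from -0.59 to 0.37. The sign of the mean also turned with the processing: it was 0.025 without background correction, 0.11 with the log ratio of the scanner software and 0.16 with median centring in place of loess. It turned as well without sh-G1 replicate 1 (0.035) and without sh-G2 replicate 2 (0.059). A probe this near the detection limit does not check the knockdown labels in either direction, so the clones are named here as labelled. The study chose the clones by RT-PCR and Western blot of GALNT3, which are not analysed here.

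The promoter windows of GALNT3, GALNT7 and GALNT14 are shown because GALNT3 was the target of the shRNA and because GALNT7 and GALNT14 were the members with the lowest means. The GALNT3 region whose methylation the study examined lies further into the gene and is not in the window. They run from 250 bases before to 50 bases after a RefSeq start (GRCh38.p14), 5′ to 3′ on the strand of the gene, and capitals mark GC boxes (GGGCGG, or CCGCCC on the other strand, overlaps counted). GALNT14 has a pair of starts.
GALNT3 chr2:165794198-165794497 (-): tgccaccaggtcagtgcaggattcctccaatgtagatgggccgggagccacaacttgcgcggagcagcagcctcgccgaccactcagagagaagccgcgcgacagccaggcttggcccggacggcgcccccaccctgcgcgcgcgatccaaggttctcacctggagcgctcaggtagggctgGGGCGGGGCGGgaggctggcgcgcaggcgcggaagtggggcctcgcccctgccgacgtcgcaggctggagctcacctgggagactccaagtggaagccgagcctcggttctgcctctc
GALNT7 chr4:173168561-173168860 (+): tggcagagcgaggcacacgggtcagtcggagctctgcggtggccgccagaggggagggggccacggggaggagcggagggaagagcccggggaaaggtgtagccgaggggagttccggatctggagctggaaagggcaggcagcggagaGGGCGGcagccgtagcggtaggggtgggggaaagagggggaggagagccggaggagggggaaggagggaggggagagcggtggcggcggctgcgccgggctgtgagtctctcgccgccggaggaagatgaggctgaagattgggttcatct
GALNT14 chr2:31138391-31138690 (-): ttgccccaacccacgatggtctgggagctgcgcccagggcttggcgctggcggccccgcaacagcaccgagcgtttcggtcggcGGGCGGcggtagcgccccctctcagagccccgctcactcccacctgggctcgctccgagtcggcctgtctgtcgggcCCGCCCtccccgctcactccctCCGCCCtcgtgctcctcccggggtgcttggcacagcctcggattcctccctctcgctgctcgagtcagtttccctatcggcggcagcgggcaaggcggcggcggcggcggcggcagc
GALNT14 chr2:31129591-31129890 (-): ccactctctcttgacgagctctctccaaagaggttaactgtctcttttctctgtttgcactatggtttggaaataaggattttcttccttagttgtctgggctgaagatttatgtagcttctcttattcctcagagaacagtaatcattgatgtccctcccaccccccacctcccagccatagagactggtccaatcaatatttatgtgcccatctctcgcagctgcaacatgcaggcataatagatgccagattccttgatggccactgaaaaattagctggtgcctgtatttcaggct

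Of the 10 members, 8 have windows in the table, 11 in all, and GALNT4 and GALNT6 have none under their own names. A GC box was found in 8 of the 11 windows, beside 45.0% of 35116 windows of all genes, and TATAAA on either strand in 0 of 11, beside 11.5%. The GALNT3 window held 28 CpG dinucleotides and 2 GC boxes, and the GALNT7 window 23 and 1. The upstream GALNT14 window held 35 CpG and 3 GC boxes and the other GALNT14 window 2 CpG and 0 GC boxes, and the 1 probe of the gene does not say which start was in use. The 1 GALNT11 window held 2 CpG, but it begins at 152074787 on chromosome 7, inside a gene that begins at 152025674. It is the window of an internal start and does not describe the 5′ end of GALNT11. The windows of the remaining members ranged widely, with 29 CpG in GALNT12, 51 each in GALNT2 and GALNT10, and 9, 50 and 62 in the 3 of GALNT1. The median over all windows was 14. The GALNT2 and GALNT3 windows also belong to internal starts and leave out the 5′ ends of these genes. That of GALNT2 begins at 230066988 on chromosome 1, inside a gene that begins at 230057789. On the minus strand, GALNT3 has its 5′ end at 165794692 on chromosome 2, and its window ends at 165794497. All these motif and CpG matches describe the sequence only.

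GALNT14, which O-glycosylates the death receptors for TRAIL, was the most even of the lower members. Its probe A_23_P67847 gave -0.53 and -0.61 in sh-G1 and -0.70 and -0.70 in sh-G2. The raw intensity was 194 to 241 in the knockdown channels and 332 to 553.5 in the ctrl channels. Part of that gap is the channel: on replicate 1 the median intensity was 802.5 in ctrl against 463.25 in sh-G1, and 758 against 469 in sh-G2. On the normalised log2 scale the ctrl signal was 8.62 ± 0.06 (SD over 4 hybridisations of the 1 ctrl clone), and every knockdown signal lay between 7.88 and 8.14. The mean was -0.64, or 1.55-fold lower, with a standard error of 0.05 and a 95% interval from -0.79 to -0.48 (n = 2 clones, adjusted limma p 0.0579). It missed the threshold, and it reached 1.5-fold on 3 of 4 arrays, the array below that size being sh-G1 replicate 1. The study itself lists GALNT14 among its genes at least 1.5-fold lower after knockdown, from its own processing. The difference between the clones, sh-G1 minus sh-G2, was 0.13 with an interval from -0.10 to 0.35 (adjusted limma p 0.857). The mean over the Cy5 arrays was -0.62 and over the Cy3 arrays -0.65, a gap larger than that of only 8.5% of probes. With a term for dye orientation on the 4 arrays (a replicate block), the adjusted limma p was 0.0085, in a fit that called 2.38% of all probes lower. That fit takes the dye-swapped arrays, which are technical, as its units. Without sh-G1 replicate 1 the mean was -0.66, without sh-G1 replicate 2 -0.62, and without sh-G2 replicate 1 -0.63. Without sh-G2 replicate 2 it was -0.64. Leaving out an array puts 1 clone in a single dye orientation, so its dye does not cancel. In a fit that lets the ctrl clone vary as much as the others the adjusted limma p was 0.371, and no probe of the array was then called.

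**Figure D2:**
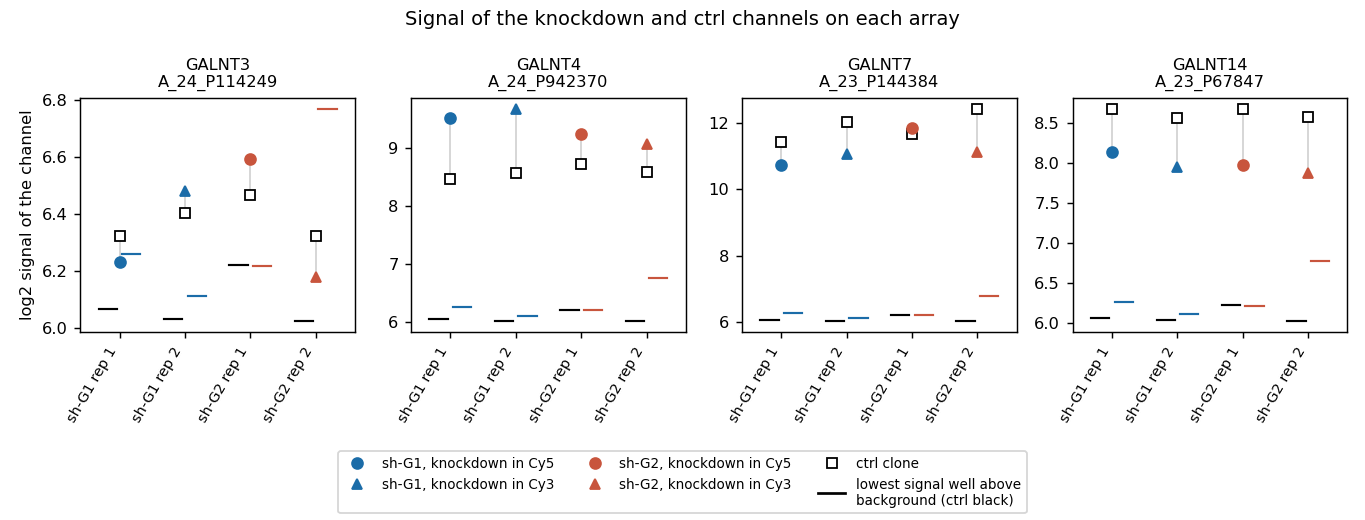
Log2 signal of the ctrl clone (open squares) and of the knockdown clones (blue sh-G1, red sh-G2) on each of the 4 arrays for GALNT3, GALNT4 (brighter probe), GALNT7 and GALNT14, each on its own vertical axis, with a short line for the lowest signal well above background in that channel. GALNT14 lies below ctrl and GALNT4 above ctrl on every array, GALNT7 lies above ctrl on sh-G2 replicate 1, and GALNT3 lies at the limit.

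GALNT7 and GALNT10 are the related members that prefer peptides already carrying GalNAc. The GALNT7 probe A_23_P144384 gave -0.71 and -0.95 in sh-G1 but 0.18 and -1.31 in sh-G2, so it was at least 1.5-fold lower on both arrays of sh-G1 and not on both of sh-G2. Its log2 signal ran from 10.72 to 11.84 in the knockdown channels and from 11.42 to 12.43 in the ctrl channels, so they overlapped. The mean was -0.70, or 1.62-fold lower, with a standard error of 0.09 and a 95% interval from -0.97 to -0.43 (n = 2 clones, adjusted limma p 0.113). That small standard error came from clone means of -0.83 and -0.57, each of which averages over the dyes. Between dye orientations the probe was among the least even on the array: the mean was -0.27 with the knockdown clone in Cy5 and -1.13 in Cy3, a gap larger than that of 97.7% of probes. Without sh-G2 replicate 1 the mean was -1.07, without sh-G1 replicate 2 it was -0.64, and without sh-G2 replicate 2 it was -0.33. Each of these fits leaves 1 clone in a single dye orientation, so the dye does not cancel there. The sh-G1 minus sh-G2 difference was -0.26 with an interval from -1.07 to 0.55 (adjusted limma p 0.943), too wide to order the clones.

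The 3 GALNT10 probes stayed near 0. A_23_P7706 gave 0.30 and -0.14 in sh-G1 and 0.47 and -0.23 in sh-G2, which is positive with the knockdown clone in Cy5 and negative in Cy3 for both clones, and its mean was 0.10 (standard error 0.05, adjusted limma p 0.518). A_24_P161964 had a mean of -0.04 and A_24_P910923 one of -0.06, with adjusted limma p of 0.803 and 0.748. Their ctrl signals were 9.36 ± 0.13, 8.88 ± 0.06 and 7.70 ± 0.13 (SD over 4 hybridisations), and the knockdown signals of each probe overlapped them. The 95% intervals of the 3 probes together ran from -0.23 to 0.24. The sign of each of these means turned when sh-G2 replicate 1 was left out (-0.075, 0.0073 and 0.046), and that of A_23_P7706 also without sh-G1 replicate 1 (-0.0073).

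GALNT4 and GALNT12 form another related pair, both with activity towards peptides that already carry GalNAc. GALNT4 was the member with the highest ratios, and it had the largest difference between the clones. The brighter probe, A_24_P942370, gave 1.05 and 1.10 in sh-G1 and 0.51 and 0.48 in sh-G2. The dimmer probe, A_23_P413576, gave 0.54 and 0.76 in sh-G1 and 0.05 and 0.11 in sh-G2. The ctrl signal of this dimmer probe ran from 7.71 to 7.82 and its knockdown signals from 7.85 to 8.48. All 8 ratios were above 0, and at each probe both sh-G1 arrays lay above both sh-G2 arrays. For the brighter probe the ctrl signal was 8.59 ± 0.11 (SD over 4 hybridisations), sh-G1 had a mean signal of 9.60 and sh-G2 one of 9.16. Its mean ratio was 0.79, or 1.73-fold higher, with a standard error of 0.16 and a 95% interval from 0.31 to 1.26 (n = 2 clones, adjusted limma p 0.220). The mean of the dimmer probe was 0.37 with an interval from -0.10 to 0.83 (adjusted limma p 0.468). The sh-G1 minus sh-G2 difference was 0.58 (interval 0.34 to 0.82) at the brighter probe and 0.57 (interval 0.33 to 0.81) at the other, both with an unadjusted limma p of 0.00179 and an adjusted p of 0.185. No member probe passed the test between the clones (0 of 14, beside 0.123% of all probes), and at an unadjusted limma p below 0.05 there were 2 of 14 (7.45% of all probes), which were these. Without 1 array each, the mean of the brighter probe ran from 0.77 (without sh-G1 replicate 2) to 0.80 (without sh-G1 replicate 1). Each of these fits leaves 1 clone in a single dye orientation. RefSeq also lists a readthrough gene, POC1B-GALNT4, and whether the GALNT4 probes bind its transcripts was not tested.

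The GALNT12 probe A_23_P415652 gave -0.03 and 0.34 in sh-G1 and 0.00 and 0.38 in sh-G2. Both values near 0 came from arrays with the knockdown clone in Cy5 and both higher ones from arrays with it in Cy3. The mean was 0.17 with a standard error of 0.05 and an interval from 0.03 to 0.31 (n = 2 clones, adjusted limma p 0.310), and it was -1e-04 in the values of the series matrix, which lack the second sh-G1 array. The clones themselves were close, with means of 0.16 and 0.19. The ctrl signal was 9.27 ± 0.15 (SD over 4 hybridisations) and the knockdown signals ran from 9.36 to 9.51, overlapping its range.

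GALNT6, the closest relative of GALNT3 and a transferase of mammary and other epithelia, was below 0 on every array. Its probe A_23_P204133 gave -0.46 and -0.17 in sh-G1 and -0.55 and -0.15 in sh-G2. No array reached 1.5-fold. The mean was -0.33, or 1.26-fold lower, with a standard error of 0.04 and an interval from -0.46 to -0.21 (n = 2 clones, adjusted limma p 0.105). The lower values again came with one orientation: the mean was -0.51 with the knockdown clone in Cy5 and -0.16 in Cy3. With a term for dye orientation (the replicate block) the adjusted limma p was 0.0247, in a fit that takes the technical arrays as its units. The ctrl signal was 8.21 ± 0.18 (SD over 4 hybridisations), with 8.06 as its lowest value, and every knockdown signal lay between 7.74 and 7.96. The clones did not separate, with means of -0.32 and -0.35 and a difference of 0.03 (interval -0.19 to 0.26).

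GALNT1 and GALNT2, the most widely expressed members, which act on many unglycosylated substrates, had means near 0 over arrays that went opposite ways. GALNT1 (A_23_P306105) gave 0.12 and -0.19 in sh-G1 and 0.45 and -0.39 in sh-G2, with a mean of -6e-04 and an interval from -0.19 to 0.18 (adjusted limma p 0.998). GALNT2 (A_24_P353794) gave 0.06 and 0.39 in sh-G1 and -0.47 and 0.33 in sh-G2, with a mean of 0.08 and an interval from -0.21 to 0.36 (adjusted limma p 0.822). The log2 signal of the GALNT1 probe was 11.99 ± 0.15 in ctrl (SD over 4 hybridisations), 11.89 in sh-G1 and 12.09 in sh-G2. That of the GALNT2 probe was 10.85 ± 0.26 in ctrl, 11.08 in sh-G1 and 10.77 in sh-G2. For both genes the intervals leave out a mean change of 1.5-fold in either direction, on the assumption that the ctrl clone adds no spread of its own. They also rest on clone means that average over the dyes, so the spread between the arrays of a clone does not enter them. The sign of the GALNT1 mean turned without sh-G1 replicate 2 (0.08) and without sh-G2 replicate 2 (0.21), and that of GALNT2 without the same arrays (-0.0028 and -0.12). GALNT1 also read 0.0013 with an offset of 0 in the background correction.

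GALNT11, which glycosylates the linkers of LDL-receptor-type repeats and acts on NOTCH1, has a pair of probes. A_23_P8412, the brighter one, gave -0.49 and -0.06 in sh-G1 and -0.57 and 0.05 in sh-G2, so its lower values were those of the Cy5 arrays in both clones. Its mean was -0.27 with an interval from -0.45 to -0.09 (standard error 0.06, adjusted limma p 0.248). A_23_P8416 gave 0.16 and -0.09 in sh-G1 and -0.49 and -0.13 in sh-G2, with a mean of -0.14 and an interval from -0.45 to 0.17 (adjusted limma p 0.689). Neither probe reached 1.5-fold on any array. The brighter probe had a ctrl signal of 13.07 ± 0.19 (SD over 4 hybridisations) and the same mean of 12.80 in both knockdown clones, and the other had 10.30 ± 0.05 in ctrl, 10.31 in sh-G1 and 10.02 in sh-G2.

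Many of the member values moved with the dye. The arrays of sh-G1 had opposite signs at 6 of 14 member probes (59.4% of all probes did) and those of sh-G2 at 8 of 14 (65.1%), so the members were not above the array in this. Means for the knockdown clone in Cy5 minus those in Cy3 ran from -0.56 at GALNT2 to 0.87 at GALNT7. GALNT14 (0.04) and the brighter GALNT4 probe (-0.01) were the members with large ratios whose means hardly differed between orientations, and both lie near the diagonal in the plot by dye orientation. GALNT1 and GALNT10 A_23_P7706 lay with a positive mean in Cy5 and a negative one in Cy3, and GALNT2 the other way. The dye cancels in the mean of each clone only as far as it is equal on its arrays.

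**Figure D3:**
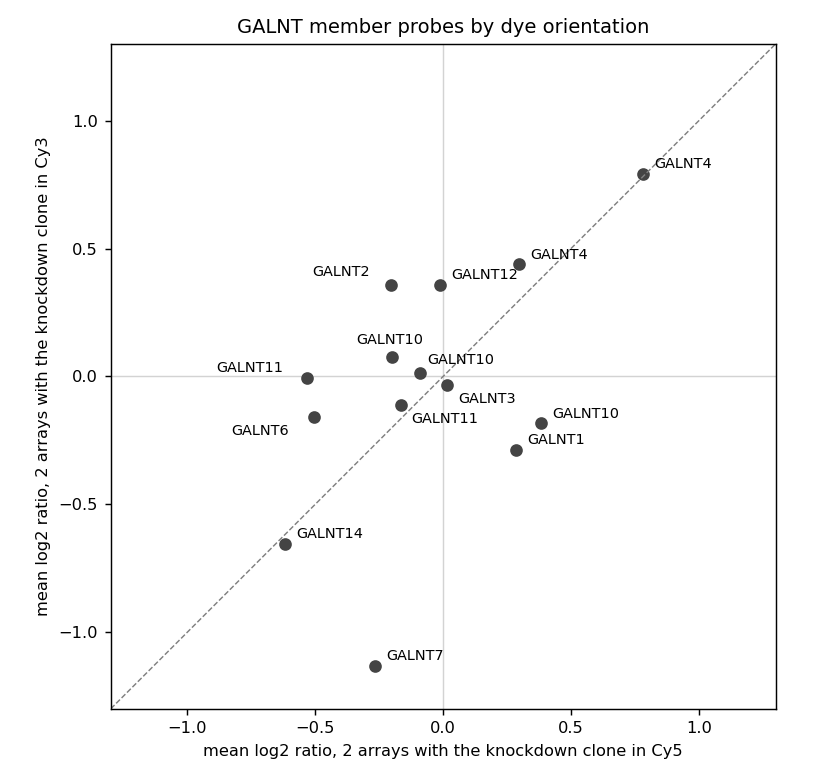
Mean log2 ratio of the 14 GALNT member probes over the 2 arrays with the knockdown clone in Cy5 (horizontal axis) against that over the 2 arrays with it in Cy3 (vertical axis), 1 point a probe, with a dashed line where they are equal. GALNT14 (-0.62 and -0.65) and the brighter GALNT4 probe (0.78 and 0.79) lie on the line, and GALNT7 (-0.27 and -1.13) lies far below it.

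The other genes of the pathway were read from 6 lists with 53 genes, of which 47 had a probe that was kept. Values for them are those of the brightest probe of a gene unless another probe is named. No pathway gene passed the limma test of the clone mean (0 lower and 0 higher of 47), 5 of 47 had an unadjusted limma p below 0.05 (13.3% of all probes did), and 1 of 47 was at least 1.5-fold lower on all 4 arrays (0.92% of all probes were). Of the 10 other GALNT family genes, 7 were kept, and their means ran from -0.07 (GALNT17) to 0.07 (GALNT16), with a median of -0.0044 equal to that of the members. A dimmer probe of GALNT13 had a mean of 0.12 (adjusted limma p 0.369). The means of the 10 members ran from -0.70 to 0.79. Members and lists were chosen with earlier results of these data known, so the wider range of the members is not a result about them. Among the core and extension enzymes, C1GALT1, which makes core 1, had a mean of 0.17 (adjusted limma p 0.622) with 0.21, -0.22, 0.96 and -0.29 on the 4 arrays, and the 6 genes kept had a median of 0.0073.

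Of the 6 sialyltransferases, ST3GAL1, which caps core 1 with sialic acid, was below 0 on all 4 arrays at both probes. The brighter probe gave -0.74 and -0.54 in sh-G1 and -1.08 and -0.74 in sh-G2, with a mean of -0.78 (1.71-fold lower, adjusted limma p 0.0877), and it reached 1.5-fold on 3 of 4 arrays. The dimmer probe, A_23_P31896, gave -1.21 and -0.83 in sh-G1 and -1.83 and -1.74 in sh-G2, at least 1.5-fold lower on all 4 arrays, with a mean of -1.40 (adjusted limma p 0.139). The other 5 sialyltransferases lay between -0.05 (ST6GALNAC1) and 0.03 (ST6GALNAC2). In the supply of UDP-GalNAc, GFPT2, an isoenzyme of the first and rate-limiting step of the hexosamine pathway, was the 1 pathway gene at least 1.5-fold lower on every array at its brightest probe, with -0.89 and -0.59 in sh-G1 and -0.80 and -0.98 in sh-G2. Its mean was -0.82 (1.76-fold lower, standard error 0.07, adjusted limma p 0.0579). Both ST3GAL1 and GFPT2 are also among the genes that the study lists as at least 1.5-fold lower. Of the probes of GFPT1, the isoenzyme of GFPT2, the brighter had a mean of 0.10 (adjusted limma p 0.659). The other, A_23_P345887, was above 0 on all 4 arrays with a mean of 0.41 (adjusted limma p 0.157). GALK2, a GalNAc kinase, had a mean of 0.36 (adjusted limma p 0.171). The enzymes that start other kinds of O-glycans had means from -0.21 (POFUT2, the fucosyltransferase of thrombospondin repeats) to 0.04 (POMT2, a mannosyltransferase), and the other POFUT2 probes read -0.03 and -0.07. The known substrates had means from -0.10 (MUC1) to 0.15 (TNFRSF10B, a TRAIL receptor), and MUC16 had -0.02, with adjusted limma p of 0.509, 0.455 and 0.906. Of the 3 probes of FN1 (fibronectin), A_24_P119745 was below 0 on all 4 arrays with a mean of -0.40 (adjusted limma p 0.0790), and the brightest had 0.02.

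**Figure D4:**
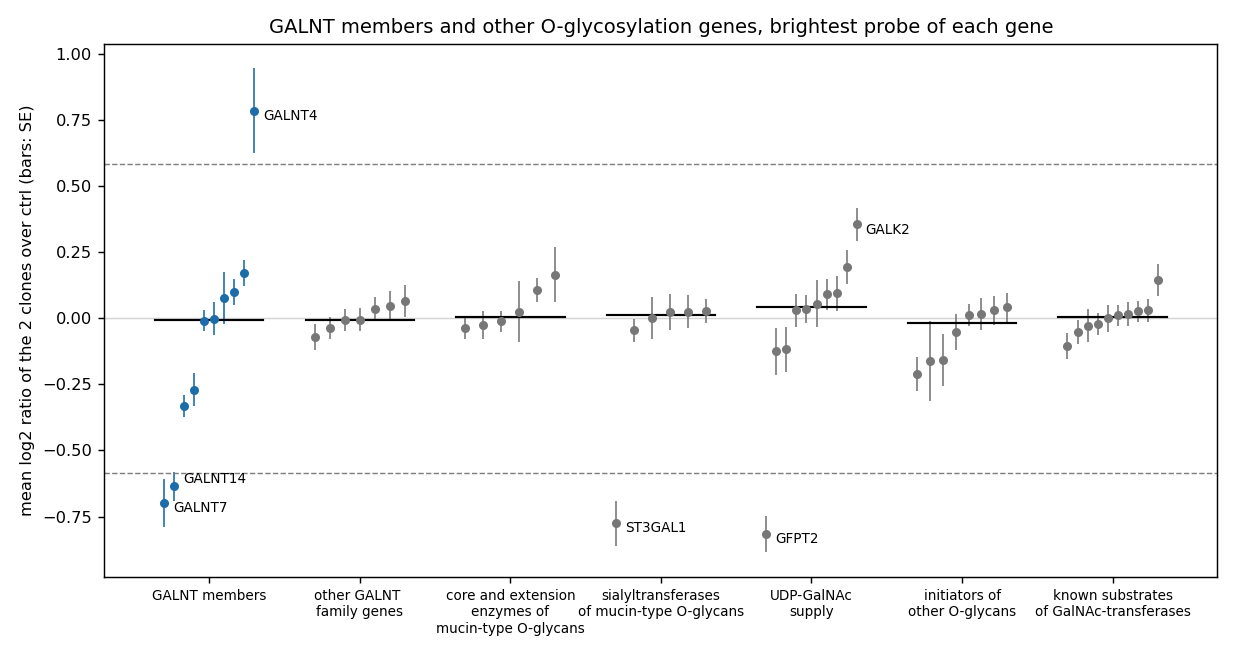
Mean log2 ratio of the 2 knockdown clones over ctrl (vertical axis, bars show the standard error) for each gene by its brightest probe, in the GALNT members (blue) and the 6 pathway lists (grey), with black lines at list medians and dashed lines at 1.5-fold. GALNT4 at 0.79, GALNT14 at -0.64, GALNT7 at -0.70, ST3GAL1 at -0.78 and GFPT2 at -0.82 lie beyond 1.5-fold, and every other gene lies within it.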

How the data were processed

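Total RNA of the clones was labelled with Cy3 and Cy5 and hybridised to Agilent Whole Human Genome arrays, 4 in all, on 1 slide. The authors scanned the arrays with Agilent Feature Extraction (8.5.1.1 in the submitters' processing notes, 10.5.1.1 in the file headers) and deposited the median intensity and median local background intensity of every spot, the log10 ratio of Cy5 over Cy3 and flags. The log10 values in the deposited series matrix are those of the software for 3 arrays and were used only as an alternative. How the authors normalised for their gene lists is not given in the sources used here.

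Intensities were corrected with normexp (offset 50), which compresses the ratios of dim probes, and normalised by loess within arrays, with control spots and outlier spots at weight 0. Outlier spots were left out, spots of a probe were averaged, ratios were turned to knockdown over ctrl, and a probe entered the tests where either channel was well above background on each array (39151 of 40905 with a value on all 4 arrays). Probe accessions were matched to RefSeq (GRCh38.p14): 25398 of 41000 probes had 1 symbol and 15602 none. The mean of the clones was tested against 0 and the difference between the clones on the 4 arrays with a dye term, both with limma 3.58.1 (eBayes with trend) in R 4.3.3 and Benjamini-Hochberg adjustment at 0.05. Signals are loess and Aquantile values. No interval covers the spread of the ctrl clone. Same-orientation arrays of the 2 clones correlated at r = 0.61 (Cy5) and 0.73 (Cy3) across probes, and the dye-swapped arrays of a clone at 0.32 and 0.19. Across probes the arrays were thus more alike by dye orientation than by clone. The orientation of each replicate was taken from the labels, which these correlations do not check. With 4 arrays the precision is limited. The text names every member probe, each pathway gene past the test or at least 1.5-fold changed on all 4 arrays, and at most 4 others of a list, those with the largest mean change. Members and lists were chosen with earlier results of these data known. Protein sequences and the shRNA target were not analysed here. The fits were tested on simulated data. These had no spread of the ctrl clone and no dye effect that differed between clones, so those limits were not covered. Figures were made with Python 3.11.15 and matplotlib 3.10.9.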

Additional observations from a re-analysis of the deposited data

How the results depend on the processing

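The counts of member probes depended on how arrays and dyes were treated, and every setting in which limma called a member also called more of all probes than the 0.7% lower and 0.138% higher of the fit reported. By limma, 1 member probe was called lower with the log ratio of the scanner software (GALNT14, -0.80, adjusted p 0.0446, with 1.04% of all probes called lower). With the arrays as units and clone as a random block there were 3 lower and 1 higher (GALNT14, GALNT7, GALNT6 and GALNT4 A_24_P942370, adjusted limma p 6e-04, 0.0246, 0.0111 and 0.0171). That fit called 4.4% of all probes lower and 2.17% higher, with a block correlation of -0.656. With the replicate block, a term for dye orientation, also with the arrays as units, there were 2 lower (GALNT14 and GALNT6) and 0 higher. Of all probes, 2.38% were called lower and 0.807% higher there. The clone test without the replicate block still called 0. Without 1 array each, 1 clone is left in a single dye orientation, so limma calls of those fits are not given. Members at least 1.5-fold lower on all remaining arrays ran from 0 to 1, beside 0.976% to 1.15% of all probes. With the ctrl clone given the spread of the knockdown clones, limma called 0 of 39151 probes in either direction. At 1.5-fold on all 4 arrays there was 1 lower with an offset of 0 (GALNT14, with 1.13% of all probes lower), and on the mean of the clones there were 2 lower and 1 higher (with 1.68% and 0.667%). Over the median of the probes of a gene, 2 pathway genes were at least 1.5-fold lower on all 4 arrays, and the pathway median was 0.0012. Taken probe by probe, 0.92% of all probes were lower by that rule.

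Of the alternative values of member means, 178 kept their direction and side of the threshold and 15 changed sign. The rest passed the threshold. Apart from GALNT14 with the scanner's ratio, they came from fits with the technical arrays as units or with an array missing. In the latter the dye does not cancel. The sign changes were at GALNT3 (0.025 without background correction, 0.11 with the scanner's ratio and 0.16 with median centring), GALNT1 (0.0013 with offset 0), GALNT12 (-1e-04 in the series matrix) and, without 1 array each, at GALNT3 (range -0.076 to 0.059), GALNT1 (-0.21 to 0.21), GALNT2 (-0.12 to 0.28) and GALNT10 (-0.075 to 0.28 for A_23_P7706, -0.085 to 0.0073 for A_24_P161964, -0.17 to 0.046 for A_24_P910923). With those series matrix values of 3 arrays, which leave sh-G1 in Cy5 only, GALNT14 read -0.88 and the brighter GALNT4 probe 0.91. The cause of these changes was not tested. The clone difference could not be fitted with 1 array left out, since no residual degree of freedom remains. GALNT3 lies at the detection limit, and what bounds its ratio was not tested. Protein identities between members were not run.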
